A study of Mus musculus with 8 samples.

Results

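The genes of oxidative phosphorylation were taken as every symbol of the deposited gene lists that begins with Ndufa, Ndufb, Ndufc, Ndufs, Ndufv, Uqcr or Atp5, begins with Cox and a digit, is Sdha, Sdhb, Sdhc or Sdhd, or names a mitochondrially encoded protein (mt-Nd, mt-Co, mt-Atp or mt-Cytb). This rule, which used no measured value, took 115 of the 31053 genes in the files, of which 102 are nuclear and 13 mitochondrially encoded. The nuclear genes comprised 44 of complex I, 4 of complex II, 8 of complex III, 29 of complex IV and 17 of complex V, and 17 of the 102 were assembly factors rather than subunits. Of the nuclear genes, 98 had a mean of at least 1 UMI per library and entered the test, as did all 13 mitochondrial genes. The other 4 were not testable, because Cox8b, Cox8c and the second of the gene identifiers named Atp5o had no UMI in any library and Cox7b2 had 1.

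The libraries were made from SN4741, a mouse line labelled as wild-type neural precursor cells and studied as a proxy for midbrain dopaminergic neurons. The line was immortalised with a temperature-sensitive SV40 large T antigen (tsA58) driven by a tyrosine hydroxylase promoter transgene, which cells of both groups carry, and its karyotype is described as polyploid and variable between cells, which limits it as a model. Of the 8 single-cell libraries, 4 came from cells grown at 37 °C in medium with 10% serum and 4 from cells moved to 39 °C in 0.5% serum for 48 hours, so that temperature and serum cannot be told apart in any comparison below. Nothing in the labels says that the 4 libraries of a temperature came from separate cultures, so the p-values measure only the spread between these libraries, which may be technical.

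The files held 19125 cells, of which 18351 were kept after removing cells with over 15% mitochondrial UMIs and cells with under 200 or over 6000 detected genes. Each library held 22988911 to 33652656 UMIs, and the median kept cell had 9839 to 15413 UMIs at 37 °C and 6676 to 16665 at 39 °C. G1 cells made up 20.6% to 28.7% of the kept cells at 37 °C and 82.5% to 85.4% at 39 °C by the phase assignment, and each comparison was therefore also made among G1 cells. When each library was scored by itself the shares were 38.1% to 42.5% and 54.1% to 58.8%, so the split depends on scoring all libraries together. Of the neural progenitor markers, 4 of 9 exceeded 10 CPM at either temperature, Vim, Nes, Sox2 and Sox9, while Hes5 had no UMI, and of the dopaminergic markers only Foxa2 did, with Th at 3 UMIs at 37 °C and 4 at 39 °C. Of the pan-neuronal markers 3 of 9 exceeded that level, and all 8 astrocyte and oligodendrocyte markers stayed below it. CPM here are UMI counts scaled to 1000000 per library after TMM normalisation, except for these markers, which are scaled to library totals only. Mesenchymal markers were present (6 of 8 over 10 CPM), with a summed level of 2069.9 to 2131 CPM at 37 °C and 864 to 889.8 CPM at 39 °C. The summed pan-neuronal markers had 165 to 194 CPM at 37 °C and 79.3 to 97.7 at 39 °C, the summed astrocyte and oligodendrocyte markers 3.20 to 3.63 and 4.93 to 5.62 CPM, and Nes went from 462 to 110.1 CPM over all libraries of a temperature, while the summed neural progenitor and dopaminergic markers overlapped. These markers thus moved with temperature beside the genes described here, and their part in the results was not tested.

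Oxidative phosphorylation makes most of the ATP of a resting cell. Complexes I to IV pass electrons from NADH and succinate to oxygen and pump protons across the inner mitochondrial membrane, and complex V, the ATP synthase, uses the gradient. Most subunits are encoded in the nucleus and imported, while the mitochondrial genome encodes a small set of membrane subunits of complexes I, III, IV and V. These are read from long transcripts that are cleaved into shorter messages. Both genomes must thus supply parts of the same machines.

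The first question was how much of each cell's message came from either genome. The 13 mitochondrial genes took 7.56%, 7.60%, 7.84% and 7.59% of all UMIs in the 37 °C libraries and 8.24%, 7.97%, 8.17% and 8.88% in the 39 °C libraries. The nuclear genes took 2.78%, 2.70%, 2.59% and 2.57% at 37 °C and 2.11%, 2.34%, 2.32% and 2.21% at 39 °C. The temperatures did not overlap in either share, and the shares moved in opposite directions. On average the mitochondrial share was 0.671 percentage points higher at 39 °C, while the nuclear share dropped by 0.416 points. The mitochondrial rise was not spread over all complexes. Mean mitochondrial UMIs per 10000 at 37 °C and 39 °C were 323 and 372 for complex IV and 72.1 and 84.1 for complex III, without overlap. For complex I (199 and 208) and complex V (170 and 168) the libraries overlapped. There were 2.88 ± 0.140 mitochondrial UMIs per nuclear UMI at 37 °C and 3.72 ± 0.294 at 39 °C (SD, n = 4 each). In the median kept cell of a library the nuclear genes took 2.58% to 2.76% of UMIs at 37 °C and 2.09% to 2.30% at 39 °C.

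The 2 shares differed in how they held within a phase. Among G1 cells the nuclear share was 2.54% to 2.74% at 37 °C and 2.11% to 2.33% at 39 °C, again without overlap, and it did not overlap among S or G2M cells either. The mitochondrial share among G1 cells was 7.85% to 8.27% at 37 °C and 7.92% to 8.81% at 39 °C, so the groups overlapped and the mean difference was 0.266 points. Among S cells the mitochondrial share differed by 1.11 points and among G2M cells by 0.909 points, with no overlap. The mitochondrial share is also the quantity by which cells were removed, since the files hold no mitochondrial gene other than these 13, and with a limit of 10% in place of 15% the difference over all kept cells was 0.325 points, still with no overlap.

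**Figure D1:**
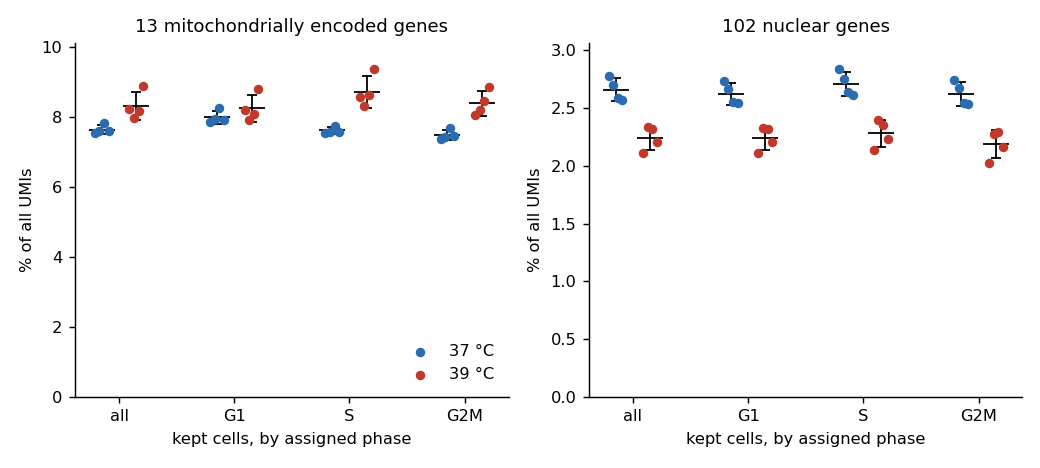
Percent of all UMIs (linear axes from 0) from the 13 mitochondrially encoded genes (left) and the 102 nuclear genes (right) in all kept cells and in cells of each assigned phase, with a point per library, a bar at the mean and whiskers of 1 SD over 4 libraries. The nuclear share was lower at 39 °C in every phase, while the mitochondrial share of G1 cells overlapped between temperatures (7.85% to 8.27% against 7.92% to 8.81%).

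The median kept cell of a library had 254 to 398 nuclear UMIs of these genes at 37 °C and 146 to 347 at 39 °C. Over the cells of a library, the Spearman correlation of the mitochondrial with the nuclear share lay between -0.109 and 0.027 in the 8 libraries, a description of cells that share a library. The 334 cells removed for a mitochondrial share over 15% had median nuclear shares of 1.00% to 1.80% in the 8 libraries, below the 2.09% to 2.76% of kept cells. Both shares are of the same UMI total, so choosing cells for a high mitochondrial share by itself lowers their nuclear share. That part of the difference was not separated.

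Across the nuclear genes, most levels were lower at 39 °C. In all kept cells 72 of the 98 tested nuclear genes fell and 7 rose (adjusted p under 0.05 by the quasi-likelihood test of edgeR, with the Benjamini-Hochberg adjustment over 15810 genes), where 30.5% of all genes tested fell and 31.5% rose. The median log2 fold change was -0.30 over the nuclear genes and 0.02 over all genes tested. Falls of over 0.5 on the log2 scale were seen for 27 nuclear genes and rises of that size for 2, against 16.5% and 16.6% of all genes. In 63 of the 98 no 39 °C library lay within the 37 °C range or across it, as in 56.7% of all genes. Every sum of nuclear genes by complex was lower at 39 °C in all 4 libraries than in any at 37 °C, the ratio of the means being 0.904 for complex I, 0.781 for complex II, 0.852 for complex III, 0.878 for complex IV and 0.739 for complex V.

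Among G1 cells the picture was smaller in size. There, 62 nuclear genes fell and 7 rose, against 22.4% and 24.8% of the 14712 genes tested, with a median log2 fold change of -0.25 against 0.04 for all genes. The falls in all cells and in G1 cells had 61 genes in common, 84.7% of the former and 98.4% of the latter, and the rises had 5 in common, 71.4% of either. These comparisons share their libraries and most of their 39 °C cells. Among S cells 71 of 97 nuclear genes fell and 2 rose (23.4% and 20.1% of all genes), and among G2M cells 65 of 97 fell and 2 rose (16.5% and 13.2%), although only 29 to 187 cells per 39 °C library were assigned to G2M.

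**Figure D2:**
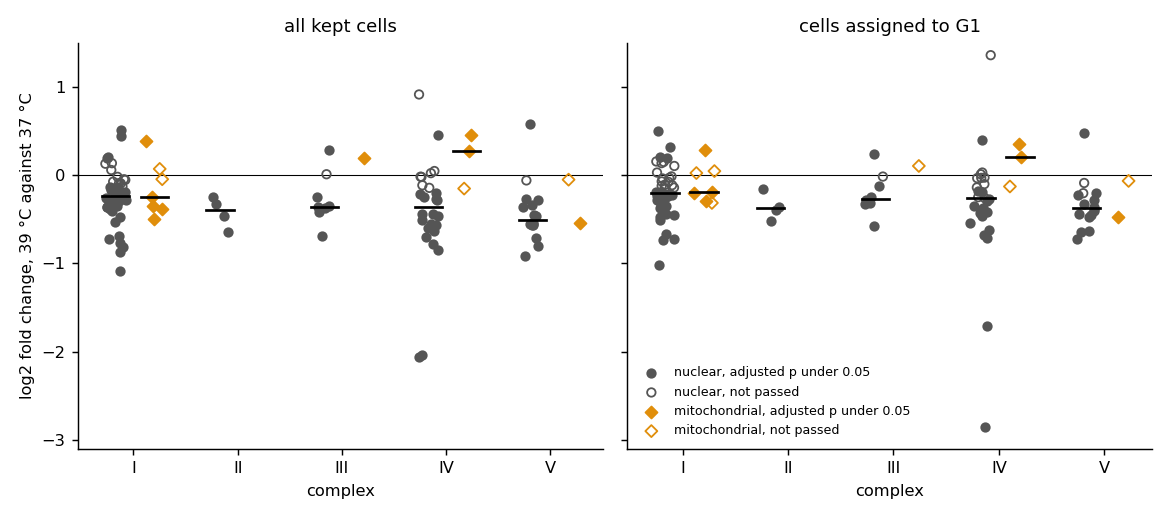
Log2 fold change at 39 °C against 37 °C for each tested gene by complex, in all kept cells (left) and in G1 cells (right), nuclear genes as grey circles and mitochondrial genes as orange diamonds, filled where the adjusted p was under 0.05, with a black bar at the median of groups of 3 or more genes. In all kept cells the nuclear medians were -0.24 for complex I, -0.40 for complex II, -0.36 for complex III, -0.36 for complex IV and -0.51 for complex V, while the 3 mitochondrial genes of complex IV had a median of 0.27.

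Complex I, the NADH dehydrogenase, held both the nuclear subunit that fell furthest among genes above 20 CPM and the one that rose furthest. Of its 44 nuclear genes 30 fell and 4 rose, and 6 of the 7 core subunits, which carry the flavin and the iron-sulfur clusters, were among the falls. Ndufs6 (ENSMUSG00000021606), a zinc-binding accessory subunit of the arm that meets NADH, had 171, 168, 157 and 162 CPM in the 37 °C libraries and 66.5, 87.4, 77.6 and 78.5 CPM in the 39 °C libraries. All 4 libraries at 39 °C thus lay far below all 4 at 37 °C, at -1.08 ± 0.06 on the log2 scale (SE, edgeR adjusted p = 1.69e-11). In G1 cells the value was -1.02 ± 0.06 (SE, edgeR adjusted p = 7.68e-12). Ndufb8, an accessory subunit of the membrane arm, went from 279.5 ± 16.4 to 153 ± 15.6 CPM (SD, n = 4 each). Ndufs8, a core iron-sulfur subunit, went from 175 ± 11.6 to 99.5 ± 7.27 CPM, a log2 fold change of -0.81. Ndufa5, an accessory subunit of the ubiquinone-binding part, went from 173 ± 22.2 to 105 ± 7.98 CPM.

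Among the other core subunits of complex I some values were smaller. Ndufs1, which carries iron-sulfur clusters next to the flavin, fell by 0.20 on the log2 scale (edgeR adjusted p = 0.00121), although in G1 cells it did not pass (log2 fold change -0.14, edgeR adjusted p = 0.0543). Ndufv1, the flavin-bearing subunit, did not pass in either, at -0.09 and 0.03. Of the 8 assembly factors 4 fell in all cells, with Ndufaf6 at -0.77 and Ndufaf5 at -0.69, both below 15 CPM and chosen after their values were seen.

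The rises in complex I were all of accessory subunits. Ndufb6 (ENSMUSG00000071014), of the membrane arm, had 273, 246, 235 and 234 CPM at 37 °C and 308, 372, 364 and 360.5 CPM at 39 °C. Every 39 °C library was above every 37 °C library, by 0.51 ± 0.06 on the log2 scale in all cells (SE, edgeR adjusted p = 7.78e-07) and by 0.50 in G1 cells. Ndufa6, which belongs to the LYR family and docks the acyl carrier protein, had 277, 268, 228 and 218 CPM at 37 °C and 337, 350.0, 342 and 321 CPM at 39 °C, again with no overlap (log2 fold change 0.45, edgeR adjusted p = 8.68e-06). Ndufa7 and Ndufa13, the second of which is also known as GRIM-19, rose by 0.20 each in all cells. Their edgeR adjusted p-values were 0.0172 and 0.0281, they did not pass in G1 cells, and leaving out 1 of several libraries ended either call, as for Ndufa13 without replicate 3 at 37 °C (log2 fold change 0.16, edgeR adjusted p = 0.103) and for Ndufa7 without replicate 4 at 37 °C (0.14, edgeR adjusted p = 0.0855). In G1 cells the assembly factors Ndufaf2 and Ndufaf8 rose by 0.20 each, calls that DESeq2 did not make.

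**Figure D3:**
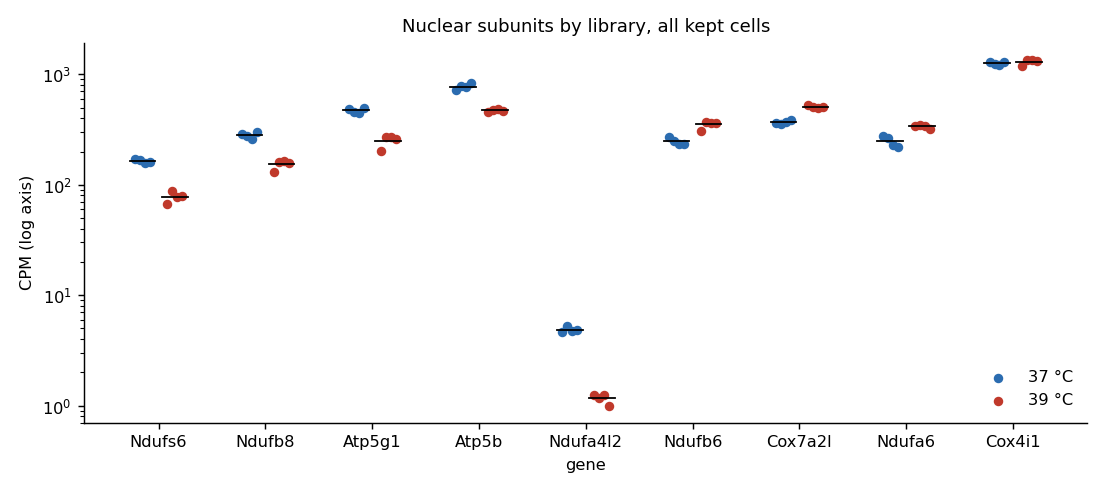
TMM-normalised CPM (log axis) of 9 nuclear genes in all kept cells, with a point per library and a bar at the mean of 4 libraries. Ndufs6, Ndufb8, Atp5g1, Atp5b and Ndufa4l2 were lower and Ndufb6, Cox7a2l and Ndufa6 higher in all 39 °C libraries, while Cox4i1 overlapped (1219 to 1288 against 1181 to 1349 CPM).

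Promoters are shown for the nuclear genes with the largest fall and the largest rise among those above 20 CPM and for Atp5g1, described below, because nuclear respiratory genes are known for shared promoter motifs. RefSeq sequences (GRCm38.p6) were at hand for 82 of the 102 nuclear genes. The 250 bases before the start are printed 5′ to 3′ on the gene's strand, with matches to the NRF1 motif, to CCGGAAG (the ETS core that GABP binds), to AAGATGGC (YY1), to CCAAT and to TATAAA on either strand in capitals. All 3 genes lie on the minus strand, Ndufs6 at chr13:73328483-73328732, Ndufb6 at chr4:40279422-40279671 and Atp5g1 at chr11:96075632-96075881.
Ndufs6: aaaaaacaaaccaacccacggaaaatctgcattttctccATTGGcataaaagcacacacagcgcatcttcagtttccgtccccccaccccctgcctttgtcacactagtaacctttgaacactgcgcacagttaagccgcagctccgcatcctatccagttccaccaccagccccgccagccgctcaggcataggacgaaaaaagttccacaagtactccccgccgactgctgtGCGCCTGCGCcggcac
Ndufb6: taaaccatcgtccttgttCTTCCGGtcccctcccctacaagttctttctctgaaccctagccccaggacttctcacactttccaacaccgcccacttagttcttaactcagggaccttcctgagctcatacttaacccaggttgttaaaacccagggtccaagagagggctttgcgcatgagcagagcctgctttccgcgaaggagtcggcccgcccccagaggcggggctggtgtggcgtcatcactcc
Atp5g1: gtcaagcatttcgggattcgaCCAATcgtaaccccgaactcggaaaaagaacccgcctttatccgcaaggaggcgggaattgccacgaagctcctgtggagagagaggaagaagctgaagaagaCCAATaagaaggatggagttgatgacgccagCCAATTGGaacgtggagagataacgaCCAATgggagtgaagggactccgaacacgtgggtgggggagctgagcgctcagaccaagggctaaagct
The Ndufs6 window held an NRF1 match 16 bases before the start and a CCAAT match, the Ndufb6 window an ETS match 232 bases before it, and the Atp5g1 window 5 CCAAT matches, of which a pair overlapped.

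Counted over the whole window from 250 bases before to 50 after the start, the NRF1 motif was in 20 of the 82 promoters (24.4%) against 5.19% of the 27025 genes with a promoter. The ETS core was in 23 (28.0% against 9.93%), the YY1 motif in 12 (14.6% against 3.19%), CCAAT in 35 (42.7% against 41.1%) and TATAAA in 8 (9.76% against 15.7%). Of the 82 genes 58 fell, 6 rose and 18 did not pass. The YY1 match was in 11 of the 58 (19.0%), in 0 of the 6 and in 1 of the 18. The NRF1 match was in 15 of the 58 (25.9%), in 1 of the 6 and in 4 of the 18. These matches describe letters only and no binding was measured.

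Complex II, succinate dehydrogenase, is the only complex made entirely from nuclear genes, and all 4 of its subunits fell in all cells and in G1 cells. Sdhd, a membrane anchor, had 43.7, 50.03, 51.1 and 42.2 CPM at 37 °C and 32.2, 25.1, 32.4 and 30.3 CPM at 39 °C, with no overlap, a log2 fold change of -0.64. Sdhb, the iron-sulfur subunit, fell by 0.46, Sdhc, the other anchor, by 0.33 and Sdha, the flavoprotein that oxidises succinate, by 0.25. The sum over complex II was 3.67 ± 0.145 UMIs per 10000 at 37 °C and 2.86 ± 0.0448 at 39 °C (SD, n = 4 each).

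Complex III, which passes electrons from ubiquinol to cytochrome c, had 6 falls and 1 rise among its 8 nuclear genes. Uqcrb, a small subunit that contacts cytochrome b, had 355, 331, 298 and 302 CPM at 37 °C and 169.6, 209, 209.8 and 207 CPM at 39 °C, with no overlap (-0.69 on the log2 scale, edgeR adjusted p = 4.19e-08). Uqcrfs1, the Rieske iron-sulfur protein, fell by 0.25. Uqcrc1, a core scaffold protein, had 166 ± 9.95 CPM at 37 °C and 167 ± 6.22 at 39 °C (log2 fold change 0.01, edgeR adjusted p = 0.883). Uqcrh, the hinge protein next to cytochrome c1, rose by 0.28 (edgeR adjusted p = 0.00213), although replicate 1 at 39 °C (349.7 CPM) lay within the 37 °C range of 316 to 383 CPM and the other 39 °C libraries lay above it, at 421 to 440.1 CPM.

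Complex IV, cytochrome c oxidase, had 18 falls and 1 rise among 26 tested nuclear genes. Of its 11 constitutive nuclear subunits 8 fell, while Cox4i1, the largest nuclear subunit, had 1288, 1237, 1219 and 1287 CPM at 37 °C and 1181, 1343, 1349 and 1322 CPM at 39 °C. Its libraries overlapped, and it did not pass (0.05 ± 0.06 on the log2 scale, edgeR adjusted p = 0.503). Cox8a and Cox7c also did not pass, at -0.14 and -0.12. Cox7b, a small membrane subunit, fell from 317 ± 18.1 to 184 ± 13.6 CPM (log2 fold change -0.78). Cox5a fell from 531 ± 27.9 to 327 ± 34.4 CPM (-0.70), while its matrix-side neighbour Cox5b fell by 0.22. Among the 9 assembly factors 7 fell, with Cox20 and Cox18, which help to insert mt-Co2 into the membrane, at -0.63 and -0.56.

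Among complex IV genes with close relatives, Cox7a2l and Cox7a2 moved in opposite directions. Cox7a2l, known as a supercomplex assembly factor, had 365, 354, 374 and 386 CPM at 37 °C and 529, 502, 498 and 504 CPM at 39 °C. All 39 °C libraries were above all 37 °C libraries (0.46 ± 0.05 on the log2 scale, edgeR adjusted p = 9.08e-08). Its relative Cox7a2, the ubiquitous subunit, had 647, 579, 517 and 509.8 CPM at 37 °C and 339, 416, 397 and 373 CPM at 39 °C (log2 fold change -0.56). Within a library there were 0.563 to 0.757 Cox7a2l UMIs per Cox7a2 UMI at 37 °C and 1.21 to 1.56 at 39 °C, UMI counts of 3′ ends not being divided by gene length. The muscle isoform Cox7a1 was sparse, at 175 UMIs over the 37 °C libraries and 101 over the 39 °C libraries. It fell too, a call lost under several settings, as with equal cells per library (log2 fold change -0.42, edgeR adjusted p = 0.169).

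Ndufa4l2 passed the stricter limits, a change of more than 1.5 log2 units at an adjusted p below 0.01, which 3.62% of all genes passed downwards. It encodes a hypoxia-inducible relative of Ndufa4, itself now counted as a subunit of complex IV. Its counts were low, at 136, 136, 134 and 139 UMIs in the 37 °C libraries and 22, 31, 35 and 26 in the 39 °C libraries, or 4.66 to 5.27 and 1.00 to 1.25 CPM. The groups were far apart, at -2.06 ± 0.12 on the log2 scale in all cells (SE, edgeR adjusted p = 3.09e-11) and -1.71 ± 0.28 in G1 cells (SE, edgeR adjusted p = 2.57e-05). Ndufa4l2 did not pass the stricter limits among S or G2M cells, and among S cells it did not pass at adjusted p under 0.05. Its fall was smaller in G2M than in G1 cells with TMM (interaction 1.38, edgeR adjusted p = 0.0109), a call lost under several settings given below. Fewer 39 °C cells were assigned to S and G2M than to G1. Ndufa4 fell by 0.44. The muscle isoform Cox6a2 passed the same limits on 30 UMIs at 37 °C and 6 at 39 °C, and the call was lost with any other cell filter, as with no cell filter (log2 fold change -0.86, edgeR adjusted p = 0.139), while Cox6a1, its ubiquitous counterpart, fell by 0.51. Cox4i2, with 7 UMIs at 37 °C and 12 at 39 °C, and Cox6b2 (log2 fold change -0.02) did not pass, and Cox6b1 fell by 0.21.

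Complex V had the lowest nuclear median, -0.51, and 14 of its 15 tested nuclear subunits fell, the 15th being Atp5l at -0.06 (edgeR adjusted p = 0.537). The sum over the nuclear genes of complex V was 75.84, 76.18, 73.86 and 74.63 UMIs per 10000 at 37 °C and 52.45, 57.18, 57.36 and 55.04 at 39 °C. Atp5b, the catalytic beta subunit, had 728, 783, 763 and 828 CPM at 37 °C and 459.8, 479, 484 and 468 CPM at 39 °C. The 39 °C values lay close together and below all 37 °C values (-0.71 ± 0.05, edgeR adjusted p = 5.14e-10). Atp5a1, the alpha subunit that alternates with beta in the head, fell by 0.47. Atp5c1, the central shaft, fell by 0.56, and Atp5f1, part of the stator stalk, by 0.57. Atp5o, the stalk subunit that caps the head, went from 375 ± 18.4 to 215 ± 24.2 CPM (-0.80). The single rise was Atp5s, a coupling factor, with 5.79 to 6.78 CPM at 37 °C and 8.39 to 10.02 CPM at 39 °C (log2 fold change 0.58, edgeR adjusted p = 4.71e-06).

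The c ring of complex V, through which protons pass, is built from a subunit that 3 genes encode with the same mature protein. Atp5g1 (ENSMUSG00000006057) had 486, 460.3, 443 and 498 CPM at 37 °C and 201, 273, 268 and 258 CPM at 39 °C. The groups were well apart, at -0.91 ± 0.08 on the log2 scale (SE, edgeR adjusted p = 2.82e-09) and -0.73 in G1 cells. Atp5g3 fell by 0.55 and Atp5g2 by 0.34. There were 0.442 to 0.487 Atp5g1 UMIs per Atp5g2 UMI in the 37 °C libraries and 0.302 to 0.343 in the 39 °C libraries, and every 39 °C ratio lay below every 37 °C ratio. How reads were divided between such close relatives is not given in the sources used here, and their values are uncertain to that extent.

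The mitochondrially encoded genes did not move as a group. In all kept cells 4 of the 13 rose and 5 fell by the same test, the median log2 fold change being -0.05, and in G1 cells 3 rose and 4 fell with a median of -0.07, all 7 of them among the 9 called in all cells. Their background is that of the nuclear genes, 31.5% higher and 30.5% lower in all cells. The genes that rose were the catalytic subunit mt-Co1, mt-Co3, mt-Cytb and mt-Nd4. Those that fell were mt-Nd1, mt-Nd4l, mt-Nd5, mt-Nd6 and mt-Atp8. With a limit of 10% on the mitochondrial share of a cell the median was -0.15 and mt-Cytb no longer passed (log2 fold change 0.12, edgeR adjusted p = 0.0795), nor did it without replicate 1 at 37 °C (0.15, edgeR adjusted p = 0.0564) or replicate 4 at 39 °C (0.14, edgeR adjusted p = 0.0642).

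The ends of the annotated transcripts, which stop at the stop codon, are shown for the 4 genes that rose and for mt-Nd1 and mt-Nd6. They differ in a feature of these ends, and where the libraries were primed was not examined. Printed are the last 30 bases of the GENCODE transcripts (GRCm38), 5′ to 3′ on the gene's strand, with the stop codon in capitals. In 10 of the 13 genes the stop codon was complete, and in mt-Co3, mt-Nd4 and mt-Cytb only its first T was encoded, the rest being known to come from the poly(A) tail.
mt-Co1: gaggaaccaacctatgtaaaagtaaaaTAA
mt-Co3: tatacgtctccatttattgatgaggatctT
mt-Cytb: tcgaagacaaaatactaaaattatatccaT
mt-Nd4: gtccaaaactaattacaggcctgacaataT
mt-Nd1: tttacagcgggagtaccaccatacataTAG
mt-Nd6: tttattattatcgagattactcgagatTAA
All 3 genes with an incomplete stop codon were among the 4 that rose in all cells, although mt-Cytb did not pass in G1 cells. In contrast, mt-Co1, which also rose, ends in a complete TAA, as does mt-Nd6, which fell. The match of incomplete stop codons to rises was seen after the values were known. It is a description of 13 genes, and no cause was tested.

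Of the mitochondrial genes that rose, mt-Co1 had 7912, 7654, 7755 and 7339 CPM at 37 °C and 10521, 10047, 10506 and 10867 CPM at 39 °C. All 39 °C libraries lay above all 37 °C libraries, at 0.45 ± 0.06 on the log2 scale (SE, edgeR adjusted p = 2.35e-06) and 0.35 in G1 cells (edgeR adjusted p = 6.65e-05). mt-Nd4, a proton-pumping subunit of complex I, had 5378, 5213, 5187 and 5302 CPM at 37 °C and 6708, 6676, 6749.6 and 7476 CPM at 39 °C (log2 fold change 0.39, edgeR adjusted p = 1.48e-05). mt-Co3, a core subunit of complex IV, rose by 0.27 and mt-Cytb, the cytochrome b of complex III, by 0.19 (edgeR adjusted p = 0.0126), the latter not in G1 cells (0.10, edgeR adjusted p = 0.19). None of these 4 overlapped between temperatures in all cells.

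Of those that fell, mt-Nd1, a core subunit at the ubiquinone site of complex I, had 5361, 5373, 5432 and 5390.1 CPM at 37 °C and 4100.2, 4172, 4122 and 4530.3 CPM at 39 °C. The 37 °C libraries were nearly identical and all 39 °C libraries lay below them (log2 fold change -0.35 ± 0.06, edgeR adjusted p = 3.27e-05). mt-Nd6, the only one of the 13 on the light strand, had 77.8, 73.4, 77.4 and 68.7 CPM at 37 °C and 56.5, 50.5, 52.2 and 52.5 CPM at 39 °C (log2 fold change -0.49, edgeR adjusted p = 7.24e-08). mt-Nd5, a proton-pumping subunit whose annotated end overlaps that of mt-Nd6 on the opposite strand by 14 bases, fell by 0.25. mt-Co2, the subunit that receives electrons from cytochrome c, did not pass at -0.15 (edgeR adjusted p = 0.0601), although it passed under 10 of the other settings. mt-Atp6 (-0.05) and mt-Nd2 (0.07) also did not pass.

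A ratio of UMI counts within a library is free of the total, and it was taken here between genes read from long common transcripts. There were 0.561 to 0.620 mt-Co1 UMIs per mt-Co2 UMI in the 37 °C libraries and 0.856 to 0.999 in the 39 °C libraries. There were 1.36 to 1.48 mt-Co1 UMIs per mt-Nd1 UMI at 37 °C and 2.40 to 2.57 at 39 °C, and 0.955 to 1.00 mt-Nd4 UMIs per mt-Nd1 UMI at 37 °C and 1.60 to 1.65 at 39 °C. None of these 3 ratios overlapped between temperatures, whereas those of mt-Atp8 to mt-Atp6 (0.00605 to 0.00929 and 0.00340 to 0.00888) and of mt-Nd4l to mt-Nd4 (0.0671 to 0.0988 and 0.0321 to 0.0738) did. The ratio of mt-Nd4 to mt-Nd1, 1.67 times as high at 39 °C, had an SD of 0.0205 at 37 °C and 0.0216 at 39 °C over 4 libraries. A ratio shows unequal change and not which of the genes moved.

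**Figure D4:**
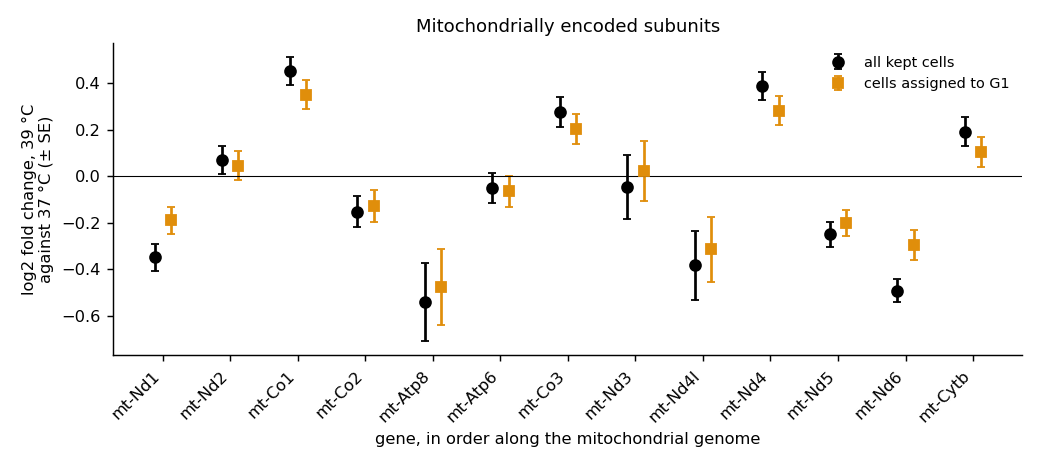
Log2 fold change at 39 °C against 37 °C (points, whiskers of 1 SE) of the 13 mitochondrially encoded genes in their order along the mitochondrial genome, in all kept cells (circles) and in G1 cells (squares). mt-Co1, mt-Co3, mt-Nd4 and mt-Cytb lay above 0 and mt-Nd1, mt-Nd5 and mt-Nd6 below it in both, and mt-Atp8, mt-Nd3 and mt-Nd4l had the widest errors.

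The wide errors belonged to genes whose level differed between libraries of 1 temperature. mt-Atp8, a small subunit of complex V, had 119, 156, 135 and 105 CPM at 37 °C and 139, 83.4, 73.1 and 61.1 CPM at 39 °C. mt-Nd3 had 1996, 2553, 2105 and 1633 CPM at 37 °C and 2782, 1898, 1724 and 1623 CPM at 39 °C. The median kept cell had 10887, 14773, 15413 and 9839 UMIs in the same 37 °C libraries and 16665, 8586, 9886 and 6676 in the same 39 °C libraries. In both genes the highest 39 °C library was thus the one with the most UMIs per cell and the lowest the one with the fewest, and the 37 °C libraries with the most UMIs per cell were also the higher ones.

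At 39 °C the highest and the lowest library were the same for mt-Nd4l, another small subunit of complex I, and for the nuclear genes Atp5k, with 105 to 265 CPM there, and Ndufa3, with 42.4 to 79.5 CPM. The part of depth in these results was not tested. All 5 overlapped between temperatures, mt-Nd3 did not pass (edgeR adjusted p = 0.79) and fell only without replicate 1 at 39 °C (log2 fold change -0.25, edgeR adjusted p = 0.0242), and mt-Atp8 and mt-Nd4l passed with edgeR (adjusted p = 0.00888 and 0.0318) and not with DESeq2 (adjusted p = 0.112 and 0.178). The mt-Nd4l call was also lost with library totals only (edgeR adjusted p = 0.0561) and on leaving out any of 6 of the 8 libraries (edgeR adjusted p = 0.0516 to 0.122). The annotated mt-Atp8 and mt-Atp6 overlap by 43 bases and mt-Nd4l and mt-Nd4 by 7, so counts of the first of either pair are uncertain.

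Cell cycle phase was the other axis on which the genes could be compared, with G2M against G1 cells of the same library. At 37 °C 34 nuclear genes were higher and 16 lower in G2M than in G1 cells (edgeR, library as a block, 14378 genes tested, of which 21.6% were higher and 19.6% lower), with a median log2 fold change of 0.05. The split depended on the scaling. With upper quartile factors in place of TMM 8 were higher and 26 lower (15.9% and 27.4% of all genes), with library totals only 21 and 23 (18.6% and 22.9%), and 24 of the 50 passed in the same direction under all 4 other scalings, 8 higher and 16 lower. Without the library as a block 17 passed in either direction, while 36.1% of all genes passed, against 41.3% with it. The largest differences among genes above 20 CPM were Ndufa5 (0.41), Ndufaf2 (0.35) and Cox18 (0.34) upwards and Ndufaf1 (-0.28), Ndufa6 (-0.27) and Ndufa7 (-0.23) downwards, and all 6 passed under each scaling. Ndufa4l2, below that level, was 1.88 ± 0.18 higher in G2M cells on the log2 scale at 37 °C (SE, edgeR adjusted p = 1.44e-17) and 3.26 ± 0.37 higher at 39 °C (SE, edgeR adjusted p = 9.25e-14). Ndufa6 and Ndufa7, lower in G2M cells, were among the genes that rose at 39 °C, and Ndufa5 and Cox18, higher in G2M cells, among those that fell. Ndufaf2, also higher in G2M cells, instead rose at 39 °C among G1 cells. These comparisons share the 37 °C libraries, and the part of phase in the temperature values of these genes was not tested.

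Among the mitochondrial genes the phases differed for 7 of 13 at 37 °C, or for 1 without the library as a block. At 37 °C mt-Co1 (-0.13), mt-Co3 (-0.12), mt-Cytb (-0.14) and mt-Nd4 (-0.17) were lower in G2M than in G1 cells, and mt-Nd1 (0.22), mt-Nd3 (0.11) and mt-Nd6 (0.13) higher, calls that held under all 4 other scalings except for mt-Nd3 and mt-Nd6. At 39 °C mt-Co1 (-0.10), mt-Cytb (-0.13), mt-Nd4 (-0.21), mt-Atp6 (-0.10) and mt-Nd6 (-0.29) were lower and mt-Nd1 (0.21) and mt-Nd3 (0.15) higher, while mt-Co3 (0.01) did not pass. Of these 7 calls at 39 °C those of mt-Nd1, mt-Nd3 and mt-Nd4 held under all 4 other scalings. The temperature values of the same genes among G1 cells, in a comparison that shares these libraries, were 0.35 for mt-Co1, 0.20 for mt-Co3, 0.10 for mt-Cytb, 0.28 for mt-Nd4, -0.19 for mt-Nd1, 0.02 for mt-Nd3 and -0.30 for mt-Nd6.

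At 39 °C 8 nuclear genes were higher and 28 lower in G2M than in G1 cells, against 11.7% and 14.2% of all genes, with a median of -0.06 against -0.05 over all genes. With library totals only 14 were higher and 20 lower (14.5% and 10.1% of all genes), and 24 of the 36 passed under all 4 other scalings, 4 higher and 20 lower. Cox20 (0.63), Atp5o (0.30) and Atp5b (0.21) had the largest rises among genes above 20 CPM, and Ndufa6 (-0.53), Uqcrc1 (-0.48) and Uqcrh (-0.40) the largest falls, and these 6 passed under each scaling.

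Whether the temperature effect differed between G2M and G1 cells was tested as an interaction, and the answer depended on the settings. With TMM 24 nuclear genes passed, lower in G2M cells for 22 and higher for 2 (5.22% and 2.46% of all genes tested), as did mt-Nd6 (-0.42) and mt-Co3 (0.13). With RLE factors 8 nuclear genes were lower and 3 higher (2.58% and 3.50% of all genes), and with library totals only 3 were lower and 4 higher (1.73% and 4.63%). The median interaction over all genes moved from -0.07 with TMM to 0.04 with library totals only, so the direction over the nuclear genes is relative to that shift. Under all 4 other scalings 5 of the 24 passed in the same direction, Cox20 and Ndufa4l2 higher and Uqcrq, Atp5d and Ndufb6 lower, and neither mitochondrial gene did. Without the library as a block 1 nuclear gene passed, Ndufa10, and 2.70% of all genes. With phases scored in each library by itself Cox20, Ndufa4l2 and Ndufb6 did not pass either, Ndufb6 being at 0.01, and Ndufa4l2 was also lost with DESeq2 (adjusted p = 0.0671) and without replicate 4 at 37 °C or replicate 2 or 3 at 39 °C (edgeR adjusted p = 0.0515 to 0.114). Among the 22 with TMM were Uqcrq (-0.32, edgeR adjusted p = 1.52e-05), Atp5d (-0.30, edgeR adjusted p = 4.89e-05) and Ndufb9 (-0.25, edgeR adjusted p = 0.000139), which were chosen for their small p after the values were seen. Ndufb6, which rose by 0.50 in G1 cells, rose by 0.23 in G2M cells (edgeR adjusted p = 0.0287, interaction -0.29), and Ndufa6, whose interaction passed under 2 of the 4 other scalings and which rose by 0.32 in G1 cells, was at 0.06 in G2M cells and did not pass there (edgeR adjusted p = 0.671, interaction -0.27).

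**Figure D5:**
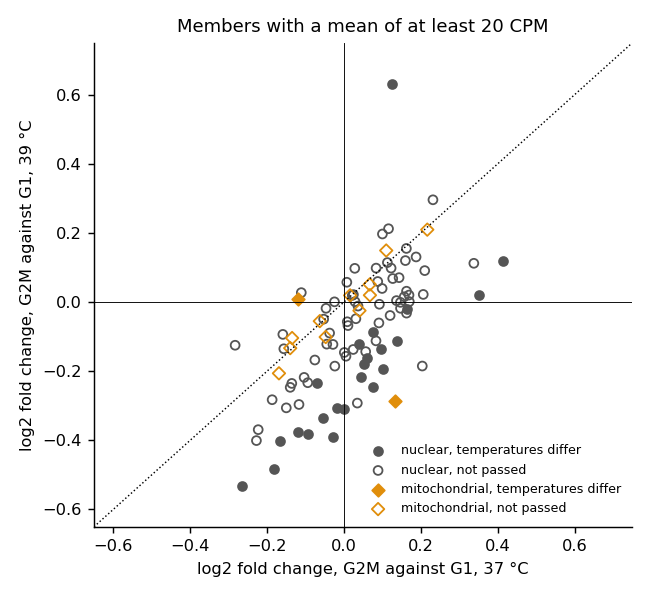
Log2 fold change of G2M against G1 cells at 37 °C (x axis) and at 39 °C (y axis) for the 100 genes with a mean of at least 20 CPM, with the line of equal values dotted and genes filled where the temperatures differed (interaction, adjusted p under 0.05). Of these, 25 were filled, all but Cox20 and mt-Co3 lying below the line. This one-sided picture holds with TMM and not with library totals only, where 3 nuclear genes were lower and 4 higher among all tested.

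Genes that work beside the respiratory chain were compared as lists, beside 30.5% of all genes that fell and 31.5% that rose. Of the 16 genes of the TCA cycle, which supplies NADH and succinate, 13 fell and the other 3 did not pass, with a median of -0.27, and Idh3a, the catalytic subunit of the NAD-dependent isocitrate dehydrogenase, went from 65.1 ± 3.77 to 31.5 ± 1.03 CPM. Of the 78 genes of the mitochondrial ribosome, which translates the messages of the 13 mitochondrial genes, 59 fell and 7 rose (median -0.34). Mrpl49 was at -1.13 and Mrpl18 at -1.07. In G1 cells those lists had 11 and 47 falls, where 22.4% of all genes fell. Of 27 genes for electron carriers and exchange across the inner membrane 17 fell and 6 rose, with Coq7, a hydroxylase of ubiquinone synthesis, at -1.28 and Slc25a5, an ADP/ATP carrier, going from 359 ± 29.0 to 172 ± 5.34 CPM.

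Other lists were closer to the shares of all genes. Among 36 tested assembly factors outside the rule 12 fell and 10 rose, with Cmc2 at -1.13 and Sco2, a copper chaperone of complex IV that is also a known p53 target, at 0.87. Among 35 genes that copy, transcribe or process mitochondrial DNA and RNA 12 fell and 10 rose, with Hsd17b10, part of the mitochondrial RNase P, at -0.67 and Tbrg4 at -0.73. Tfam, which packages mitochondrial DNA, and Polrmt, its RNA polymerase, were looked up after the values were seen, and had log2 fold changes of -0.57 and 0.20. Among 15 regulators of mitochondrial biogenesis 6 rose and 4 fell, with the nuclear receptors Esrra (0.85) and Ppard (0.83) and the AMP-activated kinase subunit Prkaa2 (1.00) among the rises. By contrast, of 10 antioxidant genes 7 fell and 1 rose, with Txnrd2, Gpx1 and Sod2 at -0.70, -0.56 and -0.48.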

How the data were processed

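Single-cell RNA-seq libraries (Chromium Single Cell 3′ V3) of SN4741 cells were analysed, 4 at 37 °C and 4 at 39 °C, grouped by the labels. The authors deposited unnormalised UMI counts per gene and cell, made with Cell Ranger 3.0.1 against mm10 according to the submitters' processing notes. The members and lists were chosen with earlier results of these data known.

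Cells with over 15% mitochondrial UMIs, under 200 or over 6000 genes were removed, after the study's methods. The mitochondrial share is the sum of the 13 mitochondrial members, so this filter acts on members themselves. No doublet caller was run beyond the upper gene limit, and pairs of libraries shared at most 5 barcodes. Phases were assigned with CellCycleScoring of Seurat 5.3.0 on all libraries together, and no member is among its genes. Counts were summed per library, or per library and phase, and genes averaging 1 count or more over the libraries were tested with the edgeR 4.0.16 quasi-likelihood test (TMM, R 4.3.3), adjusted over all genes tested. Phases were compared with the library as a block. The steps were tested on simulated data. CPM are TMM-normalised, and UMI counts were not divided by length. Libraries of 1 temperature differed by more than sampling noise, with chi-square statistics of 2.69 to 22.7 times their degrees of freedom.

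Named were all mitochondrial members, nuclear members past the strict limits, the 10 largest rises and falls at 20 CPM or more, core subunits, isoform pairs, the 3 largest phase differences in either direction and up to 3 genes per related list. Other names were chosen after the values were seen. Alternatives covered scaling, filters on genes and cells, DESeq2 1.42.0, equal cell numbers, phase scoring, the replicate block and leaving out each library. The values of 1 core subunit that this rule names are not reported here.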

Additional observations from a re-analysis of the deposited data

Results flagged for a closer look

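In 11 of 144 groups of 4 libraries 1 library stood apart from the other 3, where chance gives about 1 in 20. The gap to the nearest library, as a share of the group's range, was 0.864 for the mitochondrial share of UMIs, 0.830 for the sum over complex II and 0.902 for the ratio of Atp5g1 to Atp5g2, all at 37 °C. At 39 °C it was 0.847 for Atp5g3, 0.837 for Cox4i1, 0.830 for Cox6a2, 0.841 for Ndufb8, 0.939 for Uqcrb, 0.833 for mt-Nd1, 0.908 for mt-Nd4 and 0.861 for mt-Nd5.

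The temperature effect differed between G2M and G1 cells for 11 of 51 members examined, by the edgeR interaction test with TMM, which 7.69% of all genes passed. Without the library as a block 2.70% of all genes passed and none of the 11, and under all 4 other scalings only Ndufa4l2 and Ndufb6 of the 11 passed. On the log2 scale the difference, G2M minus G1, was -0.25 for Atp5g1, -0.18 for Cox5a, -0.16 for Ndufa4, 1.38 for Ndufa4l2, -0.29 for Ndufa5, -0.27 for Ndufa6, -0.29 for Ndufb6, -0.30 for Uqcrc1, -0.24 for Uqcrh, 0.13 for mt-Co3 and -0.42 for mt-Nd6.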

How the results depend on the processing

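Over the genes named for temperature and for phase at 37 °C, no called value changed direction under the alternatives run. With a 10% limit on the mitochondrial share of a cell, the median log2 fold change of the mitochondrial genes was -0.15 in place of -0.05. Leaving out 1 library gave medians of -0.15 (without replicate 4 at 37 °C) to -0.033, and -0.12 without replicate 1 at 39 °C, and the cause was not tested. Without 1 library, 68 to 74 nuclear genes fell and 5 to 9 rose in all cells, where 4600 to 4932 of all genes fell and 4646 to 4838 rose. In G1 cells 53 to 64 fell and 5 to 8 rose, where 3017 to 3313 of all genes fell and 3310 to 3634 rose. Between phases at 37 °C 39 to 55 differed (35.8% to 42.5% of all genes). The interaction called 17 to 39 nuclear and 0 to 2 mitochondrial genes (5.88% to 10.6% of all genes), with 39 without replicate 1 at 39 °C. The mitochondrial share differed by 0.483 to 0.785 points. The phase comparison at 37 °C called 17 nuclear and 1 mitochondrial genes with no replicate block, against 50 and 7 with the library as a block, where 36.1% and 41.3% of all genes passed. The phase comparison at 39 °C called 20 nuclear and 2 mitochondrial genes with no replicate block, against 36 and 7, where 22.2% and 25.9% of all genes passed. It called 4 mitochondrial genes with filterByExpr (29.7% of all genes) or with phase scored within each library (23.2%). The interaction called 24 nuclear and 2 mitochondrial genes with TMM (7.69% of all genes). It called 11 and 1 with RLE factors (6.08%), 10 and 1 with upper quartile factors (6.02%) and 7 and 6 with library totals only (6.36%). With totals without mitochondrial genes it called 38 and 1 (10.1%), with filterByExpr 12 and 1 (6.60%) and with DESeq2 5 and 1 (3.19%). With no replicate block it called 1 and 0 (2.70%), and with phase scored within each library 5 mitochondrial genes (16.1%). That phase scoring turned the sign of called values, giving 0.082 for mt-Nd6 between phases at 39 °C and interactions of 0.057 for Ndufa6, 0.0086 for Ndufb6, 0.056 for Uqcrc1, 0.095 for Uqcrh and 0.028 for mt-Nd6, none past the threshold. Replicate numbers share only a number between temperatures (correlations of deviations -0.130, -0.120, -0.115 and 0.325 in all cells, only number 4 matching its own best). With the replicate block in the temperature fit, 72 nuclear genes fell and 7 rose, and 4 mitochondrial genes rose and 5 fell. Of all 15810 genes 4737 fell and 4880 rose there. The call of a single named gene was lost in 33 and gained in 14 of 1438 values in all cells, over 12 of 72 genes, and lost in 34 and gained in 20 of 914 in G1 cells, over 11 of 51 genes. Phase scored within each library gave 67 falls and 9 rises of nuclear genes in G1 cells, where 3844 of 14619 genes fell and 4111 rose. Depth limits Cox6a2, Cox4i2, Cox7a1 and the G2M cells at 39 °C.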

Other observations

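Some genes outside the lists' largest changes were looked up after the values were seen. Cycs, the mobile carrier cytochrome c, had 150 ± 7.22 CPM at 37 °C and 80.6 ± 5.57 at 39 °C (SD, n = 4 each), a log2 fold change of -0.90. Ppargc1a, a coactivator of mitochondrial biogenesis, was sparse at 1.77 ± 0.170 and 1.21 ± 0.322 CPM and fell by 0.59, while Esrra, a nuclear receptor that it is known to bind, rose from 31.7 ± 1.75 to 57.3 ± 4.32 CPM.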
